A study of Mus musculus with 9 samples.

Results

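The SLAM (signaling lymphocytic activation molecule) family was examined through 8 of its genes, *Slamf1*, *Ly9*, *Slamf6*, *Slamf7*, *Cd48*, *Cd84*, *Slamf8*, and *Slamf9*. They were taken by symbol from the 31053 genes counted, and all 8 were found. Counts of the family below are counts of these 8 genes. *Cd244* is not among them and was read with the signalling genes and the neighbours. Bone marrow flushed from both femurs of 9 untreated female mice, 9 to 10 weeks old, had been profiled by droplet sequencing of transcript 3′ ends, with 1 library per mouse. The groups were 3 mice of the New Zealand Black strain (NZB), 3 of the New Zealand White strain (NZW), and 3 of their F1 hybrid (NZBWF1), which develops a lupus-like disease with age. The labels name no transgene or deletion, and whole marrow was used after lysis of red blood cells.

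SLAM family proteins are surface receptors of blood cells, and most of them bind their own kind on a neighbouring cell. The long-tailed members (*Slamf1*, *Ly9*, *Cd84*, *Slamf6*, *Slamf7*) carry tyrosine motifs that recruit the small adaptors SAP (*Sh2d1a*) and EAT-2 (*Sh2d1b1*), which can turn a signal from inhibitory to activating, and which shape contacts between T and B cells and the killing by NK cells. *Cd48* encodes a lipid-anchored ligand of the receptors CD244 and CD2, and *Slamf8* and *Slamf9* encode members with short tails that lack these motifs. In marrow the products of *Slamf1* and *Cd48* are used as surface marks of stem cells and progenitors, and the cluster lies in Sle1b, a lupus susceptibility interval that was mapped in mice descended from NZB and NZW.

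All 8 genes lie on chromosome 1 within 1001.9 kb (GRCm38, the assembly also called mm10 in the submitters' processing notes, with GENCODE vM21 annotation). A core of 6 genes spans 364.5 kb, and 522.2 kb separate it from the remaining pair. In order along the chromosome they are *Ly9* (chr1:171588624-171607410, minus strand), *Slamf7* (chr1:171632403-171653035, minus), *Cd48* (chr1:171682009-171705258, plus), *Slamf1* (chr1:171767127-171801184, plus), *Cd84* (chr1:171839697-171890718, plus), *Slamf6* (chr1:171917515-171953170, plus), *Slamf9* (chr1:172475358-172478575, plus), and *Slamf8* (chr1:172581758-172590568, minus). *Ly9* lies within the annotated span of *Cd244* on the opposite strand (chr1:171559193-171609746). The library type keeps the strand of a transcript, but the sources do not name the strand setting of the counting.

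Promoter sequences from RefSeq (GRCm38.p6, the C57BL/6J genome, not NZB or NZW) were found for 7 of the 8 genes, all but *Ly9*. They are shown for *Slamf6*, which differed between the parents in the most cell classes, for *Slamf9*, which differed the opposite way in plasmacytoid dendritic-like cells, and for *Cd84* and *Slamf8*, which differed together in monocyte-like cells. Each sequence is the 250 bases before the RefSeq start, 5′ to 3′ on the strand of the gene. Capitals mark the ETS core AGGAAG, searched on both strands, and the E-box CANNTG, which reads alike on both strands. Matches may overlap.
*Slamf6* (chr1:171917212-171917461, plus): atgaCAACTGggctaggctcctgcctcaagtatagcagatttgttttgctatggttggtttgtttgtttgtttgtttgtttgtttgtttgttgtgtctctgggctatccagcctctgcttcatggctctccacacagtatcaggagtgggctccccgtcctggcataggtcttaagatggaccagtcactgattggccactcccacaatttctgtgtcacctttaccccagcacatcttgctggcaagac
*Slamf9* (chr1:172475110-172475359, plus): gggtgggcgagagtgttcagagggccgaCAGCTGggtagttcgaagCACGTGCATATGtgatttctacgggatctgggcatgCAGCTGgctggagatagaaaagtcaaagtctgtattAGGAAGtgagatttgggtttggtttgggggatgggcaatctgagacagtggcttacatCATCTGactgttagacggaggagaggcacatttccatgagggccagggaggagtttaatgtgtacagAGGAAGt
*Cd84* (chr1:171839447-171839696, plus): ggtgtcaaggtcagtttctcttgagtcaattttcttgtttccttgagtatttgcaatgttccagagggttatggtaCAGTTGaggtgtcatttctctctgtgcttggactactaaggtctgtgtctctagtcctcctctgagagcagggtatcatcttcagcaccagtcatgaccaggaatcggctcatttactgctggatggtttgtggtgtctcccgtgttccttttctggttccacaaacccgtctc
*Slamf8* (chr1:172590569-172590818, minus): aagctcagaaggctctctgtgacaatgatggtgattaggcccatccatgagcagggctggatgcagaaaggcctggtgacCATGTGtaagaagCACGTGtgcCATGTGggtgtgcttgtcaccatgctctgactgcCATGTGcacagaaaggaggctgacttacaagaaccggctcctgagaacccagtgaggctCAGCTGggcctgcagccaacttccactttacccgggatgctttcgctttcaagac

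Of the 32851 promoters in the table, 29.5% held an ETS core and 66.2% held an E-box in these 250 bases. An ETS core stood before 3 of the 7 genes (*Slamf1*, *Slamf7*, and *Slamf9*), with 2 matches before *Slamf9*. An E-box stood before 7 of 7, once each before *Slamf6* and *Cd84* and 5 times each before *Slamf8* and *Slamf9*. At least 5 E-boxes were present in 1.2% of all promoters. These matches are descriptions of letters, and binding was not measured. Reads of all strains were counted on this reference, and the effect of strain variants on the counts was not tested.

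The 9 libraries held 68444 barcodes called as cells, and 39051 of these passed the limits of 1000 UMIs, 500 genes, and 10% mitochondrial UMIs, 2455 to 5684 per mouse. The kept cells carried 8106539 to 18663189 UMIs per mouse, with a median of 2182.5 to 2536.5 UMIs per cell. Between libraries, 627 kept cells shared a barcode sequence with a cell of another mouse. Cells were sorted into classes by lists of marker genes that did not include any SLAM family gene. A class required at least 3 of 8 markers detected, more than of any other lineage, and 32868 cells (84.2%) entered a class. Class names end in "-like" because they rest on RNA alone. Each class is a range on a marker count, and cells at exactly 3 markers made up from 0.2% (neutrophil-like) to 26.9% (stem and early progenitor-like) of the 14 classes described here. Levels are CPM, the UMIs of a gene per 1000000 UMIs of the class in each mouse, so fewer expressing cells and less RNA per expressing cell cannot be told apart. A UMI marks 1 captured 3′ end, levels are not scaled by transcript length, and the order of levels is therefore given within a gene only.

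*Cd48* had the most UMIs of the family, 7709, and like *Cd84* was detected in each of the 14 classes. Among the classes measured in 9 mice, its mean levels were highest in plasmacytoid dendritic-like cells at 224 ± 24.7 CPM (SD, n = 9), nonclassical monocyte-like cells at 222 ± 54.3, and monocyte-like cells at 202 ± 24.9. Neighbours in that order changed places between mice. Macrophage-like cells, measured in no NZB mouse, had a mean of 264 in 3 NZW mice and 176.5 in 2 NZBWF1 mice, the latter below the NZBWF1 means of the 3 classes just named (215, 229, and 219). The macrophage-like values rest on 8, 9, and 3 UMIs in the NZW and 5 and 9 in the NZBWF1 mice. NK cell-like cells followed at 199.5 ± 52.3, T cell-like cells at 144.5 ± 35.1, and stem and early progenitor-like cells at 142 ± 70.4. The place of the last class differed by strain. Its mean was 226 in NZB mice, above their nonclassical monocyte-like (193) and monocyte-like cells (182.5), and 78.6 in NZW mice, below their mature B-like cells (135.7). Granulocyte-monocyte precursor-like cells (112 ± 18.7) exceeded immature B-like cells (77.2 ± 11.9) in 9 of 9 mice, and these exceeded plasma cell-like cells (20.9 ± 18.1) in 6 of 6. The place of plasma cell-like cells depends on the scaling, as given below for their comparison with mature B-like cells. Plasma cell-like cells exceeded erythroid-like cells (16.9 ± 4.27) in 2 of 6 mice, and the latter exceeded neutrophil-like cells (8.55 ± 2.90) in 9 of 9.

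*Slamf1*, a self-binding receptor known as CD150, was low, with 908 UMIs in all. Its mean levels were 32.3 ± 15.7 CPM in stem and early progenitor-like cells, 29.3 ± 13.2 in mature B-like cells, and 28.1 ± 13.2 in immature B-like cells. No order among these 3 classes held in every mouse. Macrophage-like and basophil or mast-like cells had 0 UMIs in the mice with at least 10 such cells. Megakaryocyte-like cells were too few for a level by strain. The 2 mice with at least 10 of them had 212 (NZB2) and 81.4 CPM (NZBWF1-3), both above the mean of every class listed here. When the stem and early progenitor-like cells were divided by markers of long-term stem cells, the 80 cells with 2 or more markers had 10 *Slamf1* UMIs, or 34.0 CPM, and the other 203 cells had 25, or 32.4 CPM. *Cd48* stood at 32 UMIs, or 109 CPM, in the former and 121 UMIs, or 157 CPM, in the latter. These are sums over the 9 mice without a replicate check.

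*Ly9*, which encodes the self-binding receptor CD229, had 1500 UMIs. The highest mean was in macrophage-like cells, 106 ± 67.9 CPM in the 5 mice that could be measured, where NZW mice had 149.7, 178, and 0 CPM and 2 NZBWF1 mice had 106 and 98.2. These values rest on 4, 5, and 0 UMIs in the NZW and 3 and 5 in the NZBWF1 mice. NK cell-like (79.1 ± 14.8), T cell-like (75.8 ± 29.1), and plasmacytoid dendritic-like cells (63.4 ± 15.3) came next, in an order that was not shared by all mice. Mature B-like cells had 48.6 ± 11.6, and no *Ly9* UMI was seen in basophil or mast-like cells.

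*Cd84*, whose product also binds itself and is found on lymphoid and myeloid cells, had 4392 UMIs. NK cell-like cells (263 ± 55.4 CPM, n = 9), basophil or mast-like cells (236 ± 109, n = 6), and T cell-like cells (177 ± 54.4) led, without a fixed order. Macrophage-like cells had a mean of 324 in 3 NZW mice but 35.2 and 58.9 in 2 NZBWF1 mice, below the NZBWF1 means of T cell-like (182), monocyte-like (113), and mature B-like cells (96.3), and were not measured in NZB mice. The macrophage-like values rest on 11, 6, and 6 UMIs in the NZW and 1 and 3 in the NZBWF1 mice, from 10 to 19 cells per mouse. T cell-like cells exceeded mature B-like cells (102 ± 22) in 9 of 9 mice. In the 2 mice with at least 10 megakaryocyte-like cells, *Cd84* reached 247 and 275 CPM. Neutrophil-like cells, at 42.2 ± 14, had more than immature B-like cells, at 27.6 ± 9.73, in 9 of 9 mice.

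*Slamf6*, which encodes Ly108, had 5560 UMIs and was a gene of lymphoid classes. It stood at 348 ± 84.6 CPM in mature B-like cells, 338 ± 165 in T cell-like cells, 206 ± 71.3 in immature B-like cells, 169 ± 112 in NK cell-like cells, and 89.3 ± 59.5 in plasmacytoid dendritic-like cells. Neighbours in this order changed places between mice. Mature B-like cells exceeded T cell-like cells in 5 of 9, with means of 248 against 193 in NZB and 436 against 536 in NZW mice. After each cell was thinned to 1000 UMIs, 29.0% ± 6.92 (SD, n = 9) of mature B-like cells had a *Slamf6* UMI (39.2% unthinned, median depth 1313.5 UMIs). The same share was 0.0691% ± 0.0573 in erythroid-like cells (0.467% unthinned, median depth 9030), a class not known for the gene.

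*Slamf7*, a receptor that signals through EAT-2 and marks plasma cells, had 2289 UMIs. Plasma cell-like cells had 134 ± 22.8 CPM (n = 6), immature B-like cells 114 ± 17.6, and NK cell-like cells 72.8 ± 27.2. The distance of plasma cell-like cells from other classes depends on the scaling, as given below for mature B-like cells. Without thinning, 67.2% of plasma cell-like and 24.6% of immature B-like cells had a *Slamf7* UMI, at median depths of 9963.5 and 2048 UMIs. After thinning the shares were 12.4% and 12.0%. Mature B-like cells (39.8 ± 16.9) exceeded plasmacytoid dendritic-like cells (13.8 ± 7.75) in 9 of 9 mice. No UMI of it was found in the 283 stem and early progenitor-like cells.

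*Slamf8* and *Slamf9* were restricted in these marrows. Of 156 *Slamf8* UMIs, 120 (76.9%) were in monocyte-like and 16 (10.3%) in nonclassical monocyte-like cells, with levels of 9.23 ± 5.11 and 28.5 ± 22.6 CPM. Mature B-, plasma cell-, T cell-, and NK cell-like cells had 0 *Slamf8* UMIs. Of 605 *Slamf9* UMIs, 346 (57.2%) were in plasmacytoid dendritic-like cells at 86.0 ± 33.0 CPM, and 95 (15.7%) in mature B-like cells at 18.6 ± 12.3. The 266 plasma cell-like cells held 53 (8.76%) at 16.2 ± 16.7 CPM (n = 6), a level that depends on the scaling, as given below. Of them 15.0% had a *Slamf9* UMI at a median depth of 9963.5 UMIs, against 13.3% of plasmacytoid dendritic-like cells at 1697. After thinning the shares were 1.61% and 7.96%. T cell-, NK cell-, erythroid-, and stem and early progenitor-like cells had 0 *Slamf9* UMIs. Such shares of UMIs also move with the number of cells in each class.

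**Figure D1:**
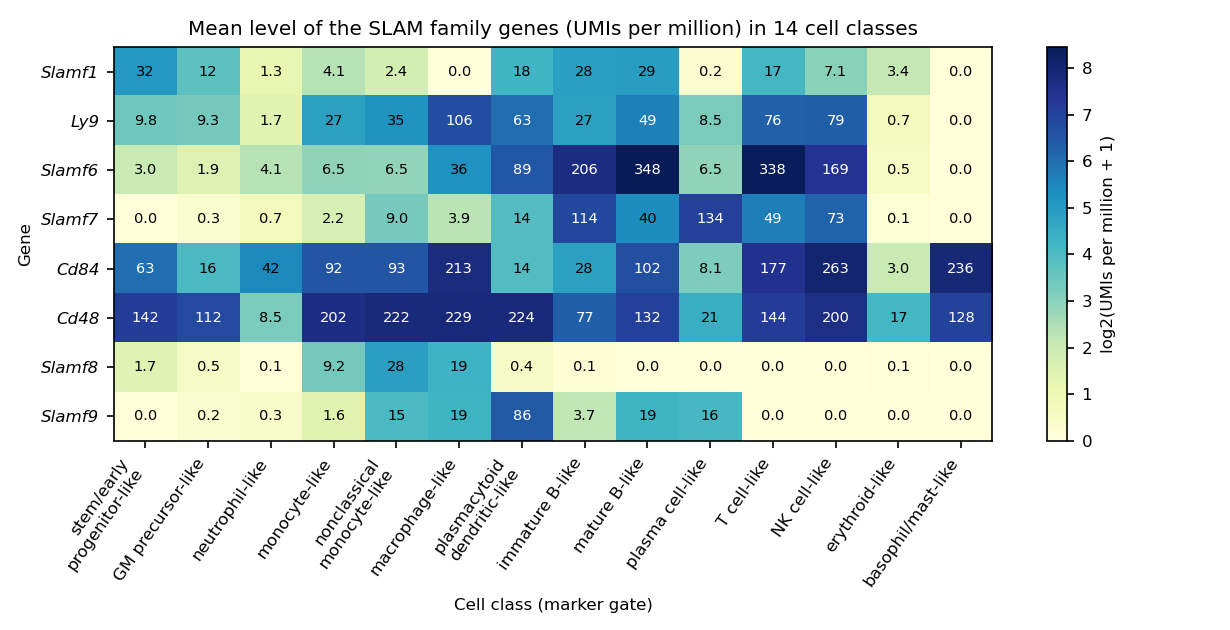
Mean level (CPM, printed in each cell and coloured on a log2 scale) of the 8 SLAM family genes (rows) in 14 marker-gated classes (columns), over the 5 to 9 mice with at least 10 cells of the class. *Cd48* was spread over most classes, *Slamf6* was highest in mature B- and T cell-like cells, *Slamf8* in nonclassical monocyte-like cells, and *Slamf9* in plasmacytoid dendritic-like cells. The levels of plasma cell-like cells relative to other classes depend on the scaling.

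For each gene, the 3 genes with the most similar pattern were found by Pearson r of the mean log2 levels over the 14 classes, among 6447 genes. The classes come from the same 9 libraries, and r is given as a description. *Slamf6* was nearest to *Rras2* (r = 0.916), *Cd2* (0.89), which encodes a receptor for CD48, and *Rasgrp1* (0.874). *Slamf9* was nearest to *Cd74* (0.938), *H2-Ab1* (0.909), and *H2-Eb1* (0.861), which serve antigen presentation on MHC class II. *Slamf8* was nearest to *Clec4b1* (0.953), *Zfyve9* (0.942), and *Adgre4* (0.938, itself 1 of the markers that set nonclassical monocyte-like cells apart), and *Ly9* to *Lpp* (0.946), *Mndal* (0.946), and *Icam1* (0.938). *Cd48* followed *Dock10* (0.949), *Aim2* (0.933), and *Psmb10* (0.931), and *Cd84* followed *Neurl3* (0.942), *Ddx58* (0.913), and *Arhgef3* (0.894). The nearest to *Slamf7* were *Trp53inp1* (0.876), *Ppp3cc* (0.851), and *Ikzf3* (0.842), and to *Slamf1* *Map7* (0.899), *Zranb1* (0.882), and *B3gnt5* (0.878).

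The parental strains were compared to ask which SLAM family genes differ between the parents of the hybrid. Alleles were not counted apart, so variants in the SLAM cluster and differences elsewhere between the strains cannot be told apart. Over 11 classes, 42 pairs of a gene and a class had enough UMIs to be tested, and 11 passed an adjusted p of 0.05 with edgeR, 9 lower and 2 higher in NZB mice. *Slamf6* accounted for 6 of the 9 lower values. The median log2 fold of the genes tested in a class ranged from -0.69 (T cell-like) to 0.11 (stem and early progenitor-like), and the median of all genes tested from -0.01 to 0.02 in these classes. The share of all tested genes that passed differed widely by class and is given beside each result. The genes that passed the filter on low counts numbered 7 of 8 in mature B-like cells, 6 in immature B-like, and 1 to 5 elsewhere.

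*Slamf6* was lower in NZB than in NZW mice in the 4 lymphoid classes tested, in plasmacytoid dendritic-like cells, and in neutrophil-like cells. In plasmacytoid dendritic-like cells the NZB mice had 18.3, 24.6, and 33.5 CPM, the NZW mice 163, 146, and 164, and the NZBWF1 mice 51.9, 109, and 94.0. The 3 groups did not overlap, and the hybrids lay between the parents. The log2 fold of NZB to NZW was -2.59 (SE 0.256, edgeR adjusted p = 7.82e-16), a 6.03-fold difference. In that class 7.78% of genes passed, and 2 of 5 SLAM family genes.

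In immature B-like cells, *Slamf6* measured 147, 107, and 127 CPM in NZB mice, 274, 220, and 331 in NZW mice, and 204, 215, and 232 in NZBWF1 mice. NZB mice stood apart from both other groups, while 1 NZW mouse fell within the range of the hybrids. The log2 fold was -1.15 (SE 0.169, edgeR adjusted p = 7.07e-06), in a class where 2.04% of genes passed and 1 of 6 SLAM family genes. In mature B-like cells the values were 226, 251, and 267 in NZB, 439, 465, and 404 in NZW, and 379, 337, and 366 in NZBWF1 mice, without overlap. The log2 fold was -0.71 (SE 0.168, edgeR adjusted p = 0.00852; 3.33% of genes passed, and 1 of 7 of the family), and it was no longer called without NZB1 (adjusted p = 0.069).

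T cell-like cells had 248, 121, and 210 *Slamf6* CPM in NZB mice, 603, 466, and 540 in NZW mice, and 310.0, 332, and 207 in NZBWF1 mice. The parents were separate, and the hybrids overlapped with NZB mice. The log2 fold was -1.39 (SE 0.288, edgeR adjusted p = 0.000243), with 1.85% of genes and 1 of 3 of the family called. NK cell-like cells had 122, 119.9, and 73.6 in NZB, 328, 199.5, and 379 in NZW, and 119.7, 101, and 74.8 in NZBWF1 mice. Here the hybrids lay within the range of the NZB mice. The log2 fold was -1.59 (SE 0.299, edgeR adjusted p = 0.000165), with 2.66% of genes and 1 of 5 of the family called. With at most 5% mitochondrial UMIs, calls were lost in T cell-like (log2 fold -1.20, edgeR adjusted p = 0.352), mature B-like (-0.51, 0.447), and plasmacytoid dendritic-like cells (-2.26, 0.0609), and with at least 2000 UMIs and 1000 genes in mature B-like cells (-1.15, 0.0819).

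Neutrophil-like cells had little *Slamf6*, with 2.35, 2.42, and 1.08 CPM in NZB mice, 4.86, 11.0, and 4.62 in NZW mice, and 2.03, 3.22, and 5.42 in NZBWF1 mice. The parents did not overlap, and the log2 fold was -1.61 (SE 0.447, edgeR adjusted p = 0.032; 8.99% of genes passed, and 1 of 3 of the family). This call was lost without NZB1 (adjusted p = 0.0505), NZB2 (0.0647), NZB3 (0.143), or NZW2 (0.18). In neutrophil-like cells the summed level of 8 T cell markers, none at 0 in all mice, was 15.8 to 19.8 CPM in NZB and 148 to 237 in NZW mice, and that of 8 B lineage markers was 21.4 to 54.7 and 68.3 to 130. The stem and early progenitor (7.72 to 11.9 against 16.4 to 24.1), long-term stem cell (2.35 to 4.24 against 6.25 to 10.2), and megakaryocyte lists (8.40 to 9.40 against 11.6 to 17.3) were lower too, and the basophil or mast cell list higher (199 to 228 against 148 to 164). Their part in the *Slamf6* difference was not tested. Monocyte-like cells, at 3.46 to 10.4 CPM in NZB mice and 4.13 to 9.95 in NZW mice, gave a log2 fold of 0.01 (SE 0.409, edgeR adjusted p = 0.987), which became -1.42 and passed (0.00472) when classes were assigned by likelihood in place of the marker count.

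**Figure D2:**
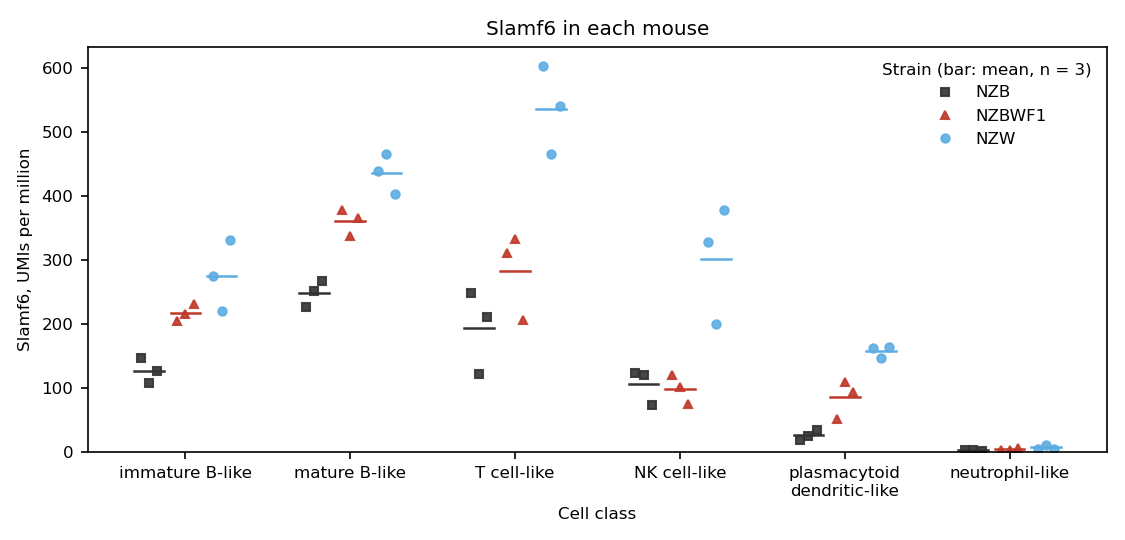
*Slamf6* in CPM (vertical axis, linear) in each mouse, by cell class and strain, with 3 mice per strain and a bar at each mean. NZB mice lay below NZW mice without overlap in all 6 classes shown, and NZBWF1 mice lay between the parents in mature B- and plasmacytoid dendritic-like cells and level with NZB mice in NK cell-like cells.

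Free RNA and markers of other cells were measured beside these values. The profile of free RNA, taken from barcodes with fewer than 100 UMIs, held 18.5 to 117 *Slamf6* CPM. A droplet was taken to hold 12 to 17 UMIs of free RNA, the medians of barcodes with at least 10 and fewer than 100 UMIs. With the expected free RNA subtracted, the number of calls between the parents was again 11. In plasmacytoid dendritic-like cells the 8 B lineage markers, none at 0, summed to 338 to 400 CPM in NZB and 322 to 400 in NZW mice, and so overlapped, and 8 T cell markers were higher in NZB mice (87.5 to 113 against 28.0 to 76.9). Of 18 lists, 3 were lower in NZB than in NZW mice without overlap in this class, 4 each in immature B-, mature B-, and NK cell-like cells, and 1 in T cell-like cells, and 0 to 2 per class were higher. In plasmacytoid dendritic-like cells the lower ones were the immature B (520 to 615 against 651 to 852), plasma cell (299 to 362 against 455 to 506, 1 marker at 0), and conventional dendritic lists (424 to 450 against 547 to 712). In mature B-like cells they were the B lineage (7230 to 9100 against 11000 to 12000), neutrophil (206 to 298 against 430 to 916), plasmacytoid dendritic (17.9 to 80.6 against 144 to 221, 1 at 0), and conventional dendritic lists (131 to 171 against 218 to 258, 1 at 0), while the plasma cell list was higher (978 to 1750 against 530 to 761). NK cell-like cells had less of the NK (7430 to 9690 against 9980 to 11600), neutrophil (188 to 210 against 261 to 449), monocyte (743 to 839 against 902 to 1090), and granulocyte-monocyte precursor lists (26.7 to 32.6 against 45.1 to 59.9, 1 at 0), and more of the mature B (779 to 963 against 349 to 604, 1 at 0) and nonclassical monocyte lists (26.7 to 89.9 against 18.0 to 20, 1 at 0). In immature B-like cells the plasma cell (542 to 690 against 702 to 776), conventional dendritic (124 to 137 against 175 to 180, 3 at 0), T cell (0 to 5.39 against 7.99 to 12.3), and basophil or mast cell lists (0 against 1.16 to 2.84, 3 at 0) were lower, and the NK list was higher (5.96 to 10.1 against 2.50 to 4.73, 1 at 0). The T cell list in T cell-like cells was 5500 to 6320 against 6570 to 6700. The part of these lists in the *Slamf6* differences was not tested. Ranges of 3 mice against 3 can separate by chance, here and in the classes below, and the number expected among 18 lists was not estimated. Immature B-like cells were also fewer in NZB mice, 75 to 165 per mouse against 632 to 721 in NZW mice, as were mature B-like cells, 69 to 118 against 348 to 497. Plasmacytoid dendritic-like cells were more numerous in NZB mice, 296 to 480 against 102 to 143, and the numbers of T cell-, NK cell-, and neutrophil-like cells overlapped.

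Monocyte-like cells differed in *Cd84* and in *Slamf8*, which encodes a short-tailed receptor of myeloid cells. *Cd84* measured 68.0, 50.2, and 62.3 CPM in NZB mice, 94.9, 105, and 108 in NZW mice, and 120.5, 111.5, and 108 in NZBWF1 mice. NZB mice were lowest, without overlap with either group, and the log2 fold of NZB to NZW was -0.80 (SE 0.136, edgeR adjusted p = 4.05e-05). *Slamf8* measured 6.92, 0.576, and 3.12 in NZB mice, 14.5, 10.6, and 14.7 in NZW mice, and 7.53, 14.3, and 10.8 in NZBWF1 mice. NZB mice were again below all others, on sums of 10 UMIs in NZB and 64 in NZW mice, and the log2 fold was -2.17 (SE 0.471, edgeR adjusted p = 0.000888). Without NZB1 the *Slamf8* fold became -3.06 and without NZB2 -1.41, both still called, and with at least 2000 UMIs and 1000 genes that of *Cd84* became -0.24 (adjusted p = 0.589). In this class 21.8% of genes passed, and 2 of 5 of the family, and the 8 monocyte markers, none at 0, summed to 5620 to 6950 in NZB and 7310 to 7460 in NZW mice. In all, 6 of 18 lists were lower in NZB mice of this class without overlap and 0 higher, among them the B lineage (18.5 to 33.4 against 53.1 to 58.9), T cell (0 to 3.46 against 3.81 to 7.67, 1 at 0), plasmacytoid dendritic (47.8 to 103 against 104 to 144), stem and early progenitor (11.4 to 15.0 against 20.7 to 46.8, 1 at 0), and megakaryocyte lists (5.19 to 5.77 against 16.8 to 24.2, 4 at 0). The part of these shifts was not tested.

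*Cd84* did not pass the test in its other 7 classes. The log2 fold was -1.24 (SE 0.519, edgeR adjusted p = 0.275) in stem and early progenitor-like cells, -1.03 (SE 0.368, 0.162) in immature B-like cells, -0.80 (SE 0.287, 0.0686) in granulocyte-monocyte precursor-like cells, and -0.08 (SE 0.352, 0.934) in neutrophil-like cells. The value in granulocyte-monocyte precursor-like cells passed with likelihood classes (edgeR adjusted p = 0.0246), without NZB1 (0.0371), and without NZW1 (0.0339), and that in stem and early progenitor-like cells with likelihood classes (0.0146).

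In stem and early progenitor-like cells *Cd48*, the CD244 ligand, was higher in NZB mice. The values were 217, 253, and 208 CPM in NZB, 96.9, 68.2, and 70.7 in NZW, and 158, 125, and 77.8 in NZBWF1 mice. The parents did not overlap, and the log2 fold was 1.47 (SE 0.315, edgeR adjusted p = 0.0012; 1.89% of genes passed, and 1 of 2 of the family). With likelihood classes the log2 fold was 0.62, still called, and with DESeq2 the adjusted p was 0.0631. The 8 long-term stem cell markers, none at 0, summed to 260 to 276 CPM in NZB and 361 to 652 in NZW mice, and the 8 stem and early progenitor markers to 1480 to 1770 and 2090 to 2390. Also lower in NZB mice were the B lineage (23.0 to 52.0 against 62.9 to 77.9, 1 at 0), mature B (20.8 to 69.1 against 141 to 181, 4 at 0), plasma cell (53.7 to 69.4 against 78.6 to 117), and macrophage lists (27.8 to 43.4 against 44.0 to 68.2). Their part in the *Cd48* difference was not tested. In the other 10 classes the log2 folds of *Cd48* lay between -0.35 and 0.32, and none passed, although that in granulocyte-monocyte precursor-like cells (0.30) did with library totals in place of TMM (edgeR adjusted p = 0.025). Those that did not pass included erythroid-like cells (-0.03, SE 0.238; 8.37% of genes passed, and 0 of 1 of the family) and nonclassical monocyte-like cells (-0.35, SE 0.437; 2.36% of genes, and 0 of 1).

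*Slamf1* was lower in NZB mice in granulocyte-monocyte precursor-like cells, where NZB mice had 14.9, 6.62, and 3.80 CPM, NZW mice 20.8, 18.2, and 15.5, and NZBWF1 mice 7.16, 10.8, and 11.6. The parents did not overlap. The log2 fold was -1.28 (SE 0.324, edgeR adjusted p = 0.0056; 9.82% of genes passed, and 1 of 4 of the family). The call was lost without NZB2 (adjusted p = 0.0858) and with DESeq2 (0.0664). The 8 stem and early progenitor markers, none at 0, were lower in NZB mice of this class as well (125 to 174 against 183 to 216 CPM), as were the B lineage (39.0 to 43.4 against 62.0 to 89.7) and macrophage lists (44.6 to 78.6 against 106 to 120). The plasma cell (168 to 215 against 103 to 137), plasmacytoid dendritic (40.8 to 57.6 against 25.9 to 38.0, 1 at 0), and conventional dendritic lists (70.2 to 78.2 against 43.4 to 54.0, 1 at 0) were higher. The part of these lists in the *Slamf1* difference was not tested. In immature B-like cells *Slamf1* had a log2 fold of 0.69 (SE 0.347, edgeR adjusted p = 0.44).

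*Slamf9*, the other short-tailed member, was higher in NZB mice in plasmacytoid dendritic-like cells. The values were 75.0, 110.5, and 124.5 CPM in NZB, 58.8, 68.6, and 36.0 in NZW, and 139.7, 80.2, and 80.3 in NZBWF1 mice. NZW mice were below all others, and the log2 fold was 0.97 (SE 0.261, edgeR adjusted p = 0.00732), in a class where 7.78% of genes passed and 2 of 5 of the family. The call was lost without NZB3 (adjusted p = 0.0606), without NZW3 (0.187), with DESeq2 (0.101), with no limit on unrelated markers (0.0618), and with at least 2000 UMIs and 1000 genes (0.542). The 8 plasmacytoid dendritic markers, none at 0, were higher in NZB mice too, 6290 to 6490 against 5010 to 5540 CPM, and their part was not tested. In mature B-like cells *Slamf9* was at 5.14, 8.98, and 5.04 in NZB mice and 42.9, 17.4, and 22.4 in NZW mice, on sums of 3 and 57 UMIs, with an edgeR adjusted p of 0.105 that did not pass, and of 0.028 with likelihood classes.

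**Figure D3:**
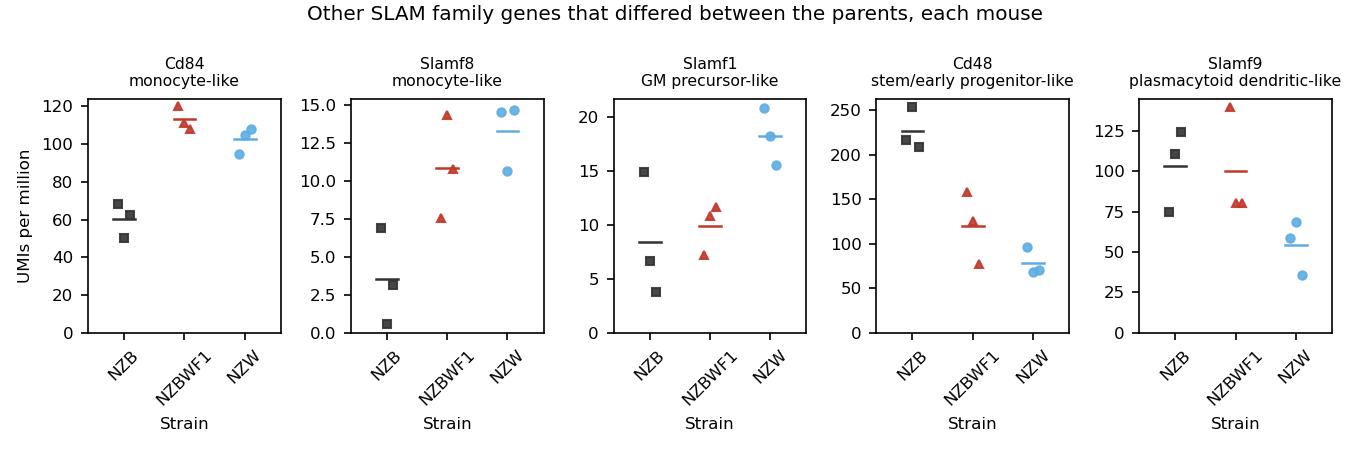
CPM (vertical axes, linear, each from 0) of *Cd84* and *Slamf8* in monocyte-like cells, *Slamf1* in granulocyte-monocyte precursor-like cells, *Cd48* in stem and early progenitor-like cells, and *Slamf9* in plasmacytoid dendritic-like cells, in each of 3 mice per strain with bars at the means. NZB mice lay below NZW mice in the first 3 panels and above them in the last 2 panels.

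*Ly9* and *Slamf7* did not pass the main test between the parents in any class. For *Ly9*, the log2 folds lay between -0.46 (SE 0.21, monocyte-like, edgeR adjusted p = 0.119) and 0.44 (SE 0.304, immature B-like, 0.642). For *Slamf7* they were -1.20 (SE 0.43, edgeR adjusted p = 0.137) in mature B-like cells, -0.27 (SE 0.44) in NK cell-like cells, and -0.20 (SE 0.188) in immature B-like cells. In mature B-like cells *Slamf7* measured 15.4, 18.0, and 25.2 CPM in NZB and 61.1, 48.8, and 35.2 in NZW mice. These ranges did not overlap, on sums of 10 and 97 UMIs, and the difference passed with likelihood classes (edgeR adjusted p = 0.0156) and with no limit on unrelated markers (0.0495). A further 5 values between the parents were under the filter on low counts and passed under an alternative, each lower in NZB mice. With likelihood classes they were *Slamf7* in neutrophil-like cells (edgeR adjusted p = 0.0294), *Slamf6* in granulocyte-monocyte precursor-like cells (0.0327), and *Cd84* in nonclassical monocyte-like (0.0115) and plasmacytoid dendritic-like cells (0.00229), and with no filter *Slamf7* in monocyte-like cells (0.0384).

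**Figure D4:**
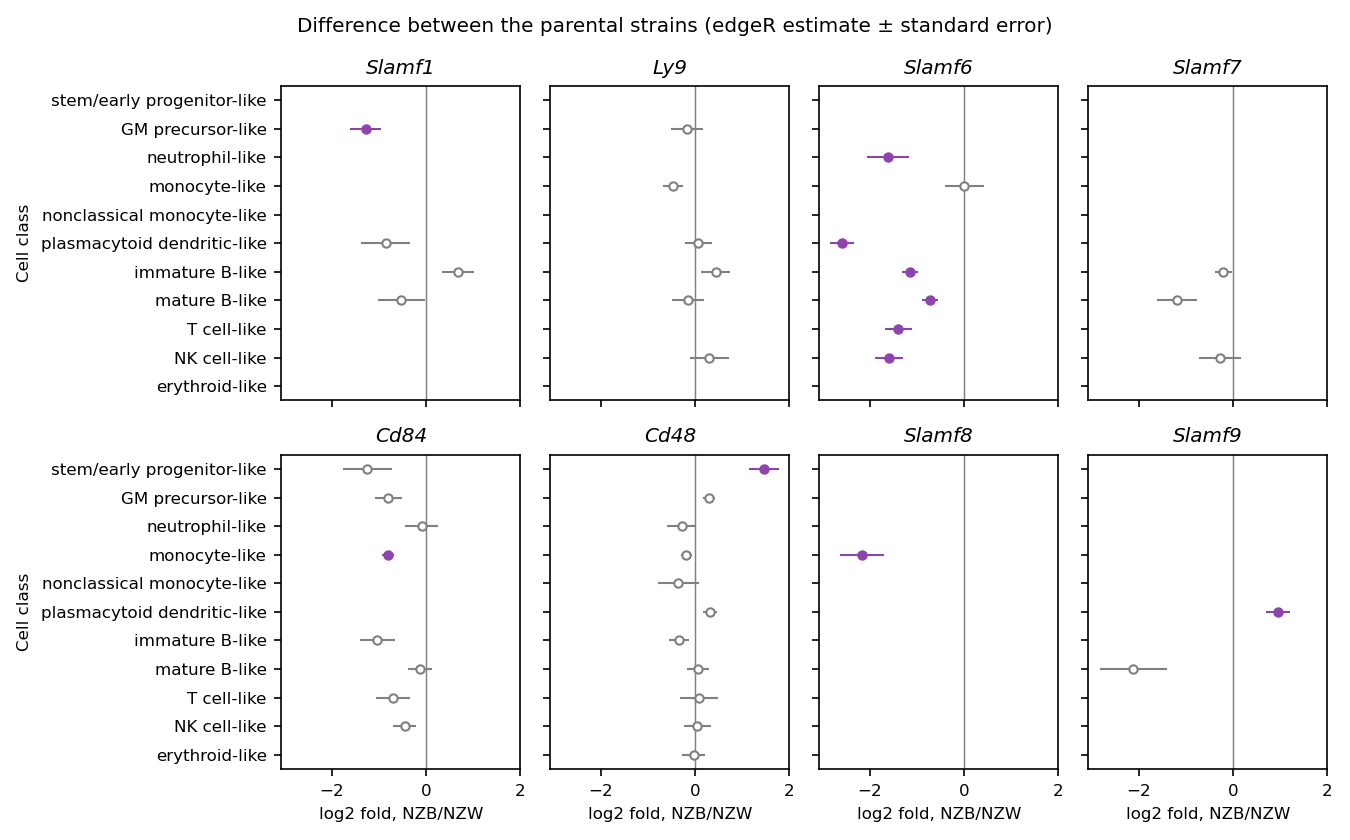
Log2 fold of NZB to NZW mice (horizontal axis) with its standard error, from edgeR, for each SLAM family gene in each of 11 classes (vertical axis) where it passed the filter on low counts; filled points have an adjusted p under 0.05. *Slamf6* lay at or left of -0.71 in 6 of its 7 classes, and the filled points right of 0 are *Cd48* in stem and early progenitor-like and *Slamf9* in plasmacytoid dendritic-like cells.

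The hybrid was compared with each parent in the same fits, which share the mice of each strain. Against NZB, 4 of 42 values were higher in NZBWF1 mice and none was lower. They were *Slamf6* in plasmacytoid dendritic-like cells (log2 fold 1.82, SE 0.254, edgeR adjusted p = 1.29e-08; 2.83% of genes passed, and 1 of 5 of the family), *Slamf6* in immature B-like cells (0.76, SE 0.172, 0.0323; 0.35% of genes, and 1 of 6), and *Cd84* (0.90, SE 0.138, 2.34e-05) and *Slamf8* (1.97, SE 0.498, 0.007) in monocyte-like cells (13.3% of genes, and 2 of 5). With at most 5% mitochondrial UMIs the *Slamf6* fold in plasmacytoid dendritic-like cells was 0.58 (adjusted p = 0.838), and with at least 2000 UMIs and 1000 genes it was 1.15 (0.82). At that limit *Cd84* was not called either (0.47, 0.3). The call in immature B-like cells was lost without NZB1 (0.0573), NZB2 (0.193), NZB3 (0.247), or NZBWF1-3 (0.0526), with at least 2000 UMIs and 1000 genes (0.215), and with at most 5% mitochondrial UMIs (0.303), and that of *Slamf8* without NZB2 (log2 fold 1.21, 0.155) or NZBWF1-2 (0.0905), while without NZB1 its log2 fold was 2.87. Of the 42 values, those that passed only under an alternative were *Slamf6* in neutrophil-like cells (0.73, which became 1.48 with likelihood classes, edgeR adjusted p = 0.00117, and 1.27 with no limit on unrelated markers, 0.011) and, in mature B-like cells, *Slamf7* (0.0161) and *Slamf9* (0.0301) with likelihood classes and *Slamf6* (0.0371) with at least 10 UMIs in every mouse. With likelihood classes 3 values that had been under the filter on low counts passed as well, *Slamf6* in granulocyte-monocyte precursor-like cells (edgeR adjusted p = 0.00558) and *Cd84* in nonclassical monocyte-like (0.0148) and plasmacytoid dendritic-like cells (0.00487). Against NZW, 3 of 42 were lower and none was higher, all *Slamf6*. They were NK cell-like (log2 fold -1.67, SE 0.275, edgeR adjusted p = 2.84e-05; 0.785% of genes passed, and 1 of 5 of the family), T cell-like (-0.97, SE 0.256, 0.0297; 0.658% of genes, and 1 of 3), and plasmacytoid dendritic-like cells (-0.77, SE 0.215, 0.0278; 1.96% of genes, and 1 of 5). The call in T cell-like cells held in 9 of 20 alternatives. It was lost without NZB3 (0.0511), NZW1 (0.31), NZW3 (0.145), or NZBWF1-3 (0.553), with at most 5% mitochondrial UMIs (log2 fold -0.49, 0.968), no filter (0.332), likelihood classes (0.112), library totals (0.0931), at least 4 markers (0.0719), or no limit on unrelated markers (0.0527). The call in plasmacytoid dendritic-like cells was lost without NZW1 (0.139), NZW2 (0.0581), NZW3 (0.168), NZBWF1-1 (0.13), or NZBWF1-3 (0.0566). It was also lost with at least 2000 UMIs and 1000 genes (-1.16, 0.713), likelihood classes (0.0898), and no filter (0.0612). With at most 5% mitochondrial UMIs its log2 fold was -1.68 (0.433), and with DESeq2 the adjusted p was 0.198 there, 0.376 for T cell-like cells, and 0.0749 for immature B-like cells against NZB. Against NZW, *Slamf7* in NK cell-like cells passed with likelihood classes alone (-1.46, edgeR adjusted p = 0.0247) and *Slamf6* in immature B-like cells without NZW2 alone (-0.53, 0.0484).

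Some of the 18 marker lists also had ranges in the hybrids that lay apart from those of a parent in the classes with these calls. Ranges of 3 mice against 3 can separate by chance, and the number of lists expected to do so was not estimated. In monocyte-like cells 5 of 18 lists were higher in NZBWF1 than in NZB mice without overlap and 0 lower. They were the nonclassical monocyte (166 to 170 CPM against 106 to 153), B lineage (40.7 to 58.3 against 18.5 to 33.4), mature B (78.3 to 89.1 against 47.3 to 54.0, 1 at 0), plasmacytoid dendritic (110 to 145 against 47.8 to 103), and megakaryocyte lists (16.9 to 21.1 against 5.19 to 5.77, 4 at 0). Immature B-like cells of hybrids had more than those of NZB mice of the plasma cell (712 to 731 against 542 to 690), macrophage (9.49 to 13.4 against 0 to 5.96), conventional dendritic (164 to 221 against 124 to 137, 3 at 0), and basophil or mast cell lists (0.791 to 2.79 against 0, 3 at 0). In plasmacytoid dendritic-like cells the plasma cell list was higher than in NZB mice (435 to 563 against 299 to 362, 1 at 0), and the nonclassical monocyte list (75.8 to 87.8 against 98.5 to 109) and the class's own list (5700 to 5930 against 6290 to 6490) were lower. The latter was higher than in NZW mice (5010 to 5540), as was the T cell list (78.0 to 128 against 28.0 to 76.9), while the long-term stem cell list was lower (4.55 to 7.98 against 8.58 to 20, 4 at 0). Compared with NZW mice, NK cell-like cells had less of the NK (9570 to 9780 against 9980 to 11600) and plasmacytoid dendritic lists (167 to 176 against 190 to 222, 1 at 0). T cell-like cells had less of the T cell list (6010 to 6240 against 6570 to 6700) and more of the monocyte (181 to 211 against 96.4 to 154, 1 at 0), plasmacytoid dendritic (233 to 242 against 115 to 196, 2 at 0), B lineage (27.5 to 41.3 against 16.1 to 25.7, 1 at 0), and long-term stem cell lists (70.5 to 93.0 against 32.1 to 51.3, 5 at 0). The part of these lists in the differences of the hybrid was not tested.

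On a scale with the NZW mean at 0 and the NZB mean at 1, the NZBWF1 mean of *Slamf6* lay at 0.393 in immature B-like, 0.403 in mature B-like, 0.549 in plasmacytoid dendritic-like, 0.673 in neutrophil-like, 0.738 in T cell-like, and 1.03 in NK cell-like cells. *Slamf8* in monocyte-like cells lay at 0.247, *Cd48* in stem and early progenitor-like cells at 0.283, *Slamf1* in granulocyte-monocyte precursor-like cells at 0.851, and *Slamf9* in plasmacytoid dendritic-like cells at 0.934. *Cd84* in monocyte-like cells lay at -0.249, beyond the NZW mean. These places are descriptions from means of 3 mice per strain, and they were not recomputed without single mice. They use means of CPM, while the test against the mean of the parents averages on the log2 scale, so that the 2 midpoints differ. *Slamf6* in plasmacytoid dendritic-like cells, at 0.549 here, had a log2 fold of 0.525 in that test and did not pass (edgeR adjusted p = 0.412). Against the mean of the parents, *Cd84* in monocyte-like cells was the only 1 of 42 values that passed in any class (log2 fold 0.50, SE 0.111, edgeR adjusted p = 0.014; 1.16% of genes in the class, and 1 of 5 of the family). It was lost without NZB2 (adjusted p = 0.0787), NZBWF1-2 (0.14), or NZBWF1-3 (0.0649), with at least 2000 UMIs and 1000 genes (0.736), and with likelihood classes (0.0535). The mature B list in this class also lay above both parents, at 78.3 to 89.1 CPM against 47.3 to 54.0 in NZB and 53.1 to 72.3 in NZW mice, and its part was not tested.

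Related classes of the same mice were compared to see where along a lineage the genes differ. From immature to mature B-like cells, *Cd84* was higher by a log2 fold of 2.09 (SE 0.152, edgeR adjusted p = 1.00e-16), *Ly9* by 1.01 (SE 0.185, 7.32e-06), *Slamf6* by 0.94 (SE 0.0926, 2.06e-12), and *Cd48* by 0.94 (SE 0.115, 1.06e-09). *Slamf7* was lower by a log2 fold of -1.47 (SE 0.154, edgeR adjusted p = 1.37e-11), and *Slamf1* did not pass (0.15, SE 0.219, 0.575) except with likelihood classes (0.43, 0.0402). With at least 2000 UMIs and 1000 genes the *Slamf7* value was -0.81. *Cd84*, *Slamf6*, and *Cd48* were higher in 9 of 9 mice, *Ly9* in 8 of 9, and *Slamf7* was lower in 9 of 9. In this pair 5 of 6 genes of the family passed, beside 56.1% of all genes.

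Plasma cell-like cells were compared with mature B-like cells in the 6 NZB and NZBWF1 mice, since the NZW mice had 6 to 9 plasma cell-like cells each. *Slamf7* was higher in plasma cell-like cells (log2 fold 3.93, SE 0.217, edgeR adjusted p = 7.83e-51), at 131, 125, and 115 CPM in NZB and 177, 138.5, and 116 in NZBWF1 mice, higher in 6 of 6. *Slamf6* (-3.78, SE 0.304, edgeR adjusted p = 1.86e-28), *Cd84* (-1.66, SE 0.374, 3.96e-05), and *Cd48* (-1.21, SE 0.292, 0.000125) were lower in 6 of 6. All 4 tested genes of the family passed, beside 58.6% of all genes. The sizes depend on the scaling, and the counts of mice rest on CPM, which is not scaled by TMM. Without TMM the median of all genes moved by -2.11 on the log2 scale, the share of calls that were higher fell from 47.5% to 4.2%, and the log2 folds became 1.86 for *Slamf7*, -5.87 for *Slamf6*, -3.73 for *Cd84*, and -3.31 for *Cd48*. The *Cd84* value without NZB3 was -4.39, *Cd48* was no longer called with no limit on unrelated markers (-0.64, adjusted p = 0.0792) or with at least 2000 UMIs and 1000 genes (-0.84, 0.0966), and with likelihood classes the values were 3.31 for *Slamf7*, -2.95 for *Slamf6*, and -0.57 for *Cd48*. *Slamf6* was at -2.80 with at least 2000 UMIs and 1000 genes and at -2.93 with no limit on unrelated markers, both still called.

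**Figure D5:**
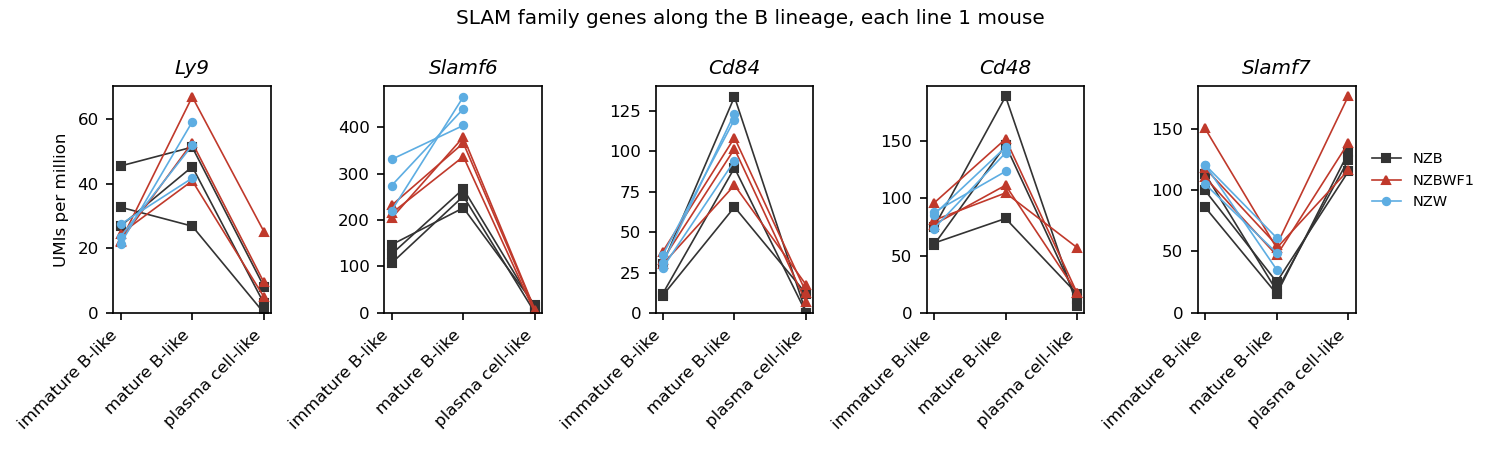
CPM (vertical axes, linear) of 5 SLAM family genes in immature B-, mature B-, and plasma cell-like cells, each line 1 mouse, coloured by strain; NZW mice end at mature B-like cells because they had fewer than 10 plasma cell-like cells. *Slamf6*, *Cd84*, and *Cd48* rose from immature to mature B-like cells in 9 of 9 mice and were lower in plasma cell-like cells in 6 of 6, while *Slamf7* had its lowest point in mature B-like cells in every mouse. CPM is not scaled by TMM, and the step to plasma cell-like cells depends on the scaling.

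Between T cell- and NK cell-like cells, *Slamf6* was higher in the former (log2 fold 1.18, SE 0.149, edgeR adjusted p = 1.96e-08, 9 of 9 mice) and *Cd84* was lower (-0.50, SE 0.147, 0.00786, 8 of 9 mice), so that 2 of 3 passed beside 27.5% of all genes. With likelihood classes *Cd84* was not called (adjusted p = 0.051). *Cd48* did not pass (-0.43, SE 0.182, 0.0746), but did with library totals (edgeR adjusted p = 0.0291), at least 2 markers (0.0494), no limit on unrelated markers (0.026), or without NZB2 (0.0482), NZW1 (0.0403), or NZBWF1-1 (0.0303). Macrophage-like cells exceeded monocyte-like cells in *Ly9* (log2 fold 1.57, SE 0.523, edgeR adjusted p = 0.0182, 4 of 5 mice), 1 of 3 genes beside 18.5% of all genes. That call was lost without NZW1 (0.118), NZW2 (0.205), NZBWF1-2 (0.0879), or NZBWF1-3 (0.167), with no filter (0.0936), and with no limit on unrelated markers (0.134). With no such limit *Cd48*, at -0.20 in the same pair (0.714), became -1.18 and passed (edgeR adjusted p = 0.026). Nonclassical against other monocyte-like cells gave 0 calls among 3 genes (edgeR, 0 at an unadjusted p under 0.05), beside 19.4% of all genes, although *Cd84* (0.10) became 0.56 and passed with likelihood classes (edgeR adjusted p = 0.00539). Values of related classes that were under the filter on low counts and passed under an alternative were *Slamf6* in macrophage- against monocyte-like cells (1.89, edgeR adjusted p = 0.00843) and *Ly9* in plasma cell- against mature B-like cells (-1.37, 0.0261) with likelihood classes, and, with no filter, *Slamf9* in mature against immature B-like cells (2.31, 0.000738) and *Slamf1* (-4.27, 0.00127) and *Slamf9* (2.23, 0.00017) in plasma cell- against mature B-like cells.

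Whether the parental difference itself differed between classes was tested as an interaction. Among the related pairs, 0 of 12 values passed. The counts were 0 of 6 genes for mature against immature B-like cells (1.14% of all genes), 0 of 3 for T cell- against NK cell-like cells (0.201%), and 0 of 3 for nonclassical against other monocyte-like cells (0.098%). At an unadjusted p under 0.05, edgeR called 1 of these 12, *Slamf1* in the B-like pair. A further pair, plasmacytoid dendritic- against mature B-like cells, was chosen after the values had been seen. There 2 of 6 genes passed, beside 3.25% of all genes. The NZB to NZW difference of *Slamf6* was larger in plasmacytoid dendritic-like cells by a log2 fold of -1.89 (SE 0.297, edgeR adjusted p = 2.02e-05), and that of *Slamf9* ran the other way by 3.00 (SE 0.692, 0.00503). The former was lost with at most 5% mitochondrial UMIs (0.266) or with at least 2000 UMIs and 1000 genes (-1.19, 0.54), and the latter without NZB3 (0.0829) or NZW1 (0.0687). In the same pair 5 of 6 genes differed between the classes, beside 48.9% of all genes, and *Slamf9* was higher in plasmacytoid dendritic-like cells by a log2 fold of 2.29 (SE 0.227, edgeR adjusted p = 4.43e-13, 9 of 9 mice). *Slamf1*, lower there by -0.73, was not called without NZB1 (edgeR adjusted p = 0.407), NZW3 (0.0694), or NZBWF1-1 (0.0519), or with library totals (0.0572), and *Cd48*, higher by 0.66, was not called with at most 5% mitochondrial UMIs (0.413). *Slamf7*, under the filter in this pair, was lower in plasmacytoid dendritic-like cells in the 6 alternatives in which it passed (-1.30 to -1.69). The interaction of *Cd84* in this pair passed with likelihood classes alone (-1.84, edgeR adjusted p = 0.0353).

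The adaptors and partners of the family were read from a list of 15 signalling genes. *Sh2d1a*, which encodes SAP, stood at 302.5 ± 47.5 CPM in NK cell-like and 166 ± 54.7 in T cell-like cells (SD, n = 9), and at most at 1.37 in every other class. *Sh2d1b1*, which encodes EAT-2, reached 49.9 ± 25.9 in NK cell-like cells, 41.1 ± 43.9 in macrophage-like cells (n = 5), and 19.1 ± 26.6 in nonclassical monocyte-like cells, and at most 1.61 elsewhere. *Cd244*, the receptor for CD48, was highest in NK cell-like (216 ± 29.7) and nonclassical monocyte-like cells (190 ± 153), and was higher in the latter than in other monocyte-like cells by a log2 fold of 3.28 (SE 0.272) while *Cd48* was not called.

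Between the parents, 3 of 89 tested values of the signalling list were higher and 4 lower in NZB mice (edgeR). The 7 calls were 3 of 10 values in monocyte-like cells, where 21.8% of all genes passed, 2 of 10 in plasmacytoid dendritic-like (7.78%), 1 of 10 in neutrophil-like (8.99%), and 1 of 8 in NK cell-like cells (2.66%). *Cd244* in plasmacytoid dendritic-like cells was at 32.2 ± 6.63 CPM in NZB, 109.6 ± 18.4 in NZW, and 73.7 ± 18.3 in NZBWF1 mice (log2 fold -1.73, SE 0.268, edgeR adjusted p = 1.88e-07), the same direction as *Slamf6* in that class. In monocyte-like cells *Cd244* was higher in NZB mice (1.08, SE 0.278, edgeR adjusted p = 0.00452), and *Becn1* (-0.49) and *Inpp5d* (-0.42), which encode a partner in autophagy and an inhibitory lipid phosphatase, were lower. *Csk* in NK cell-like cells (0.93) and *Fyn* in plasmacytoid dendritic-like cells (0.43), kinases of the Src pathway, were higher, and *Ptpn11* in neutrophil-like cells (-0.80) was lower. Of 29 other genes within 200 kb of the span, 3 of 100 tested values were higher and 3 lower. They were *Igsf8* (1.46, SE 0.161, edgeR adjusted p = 2.42e-08), *Tagln2* (0.40), *Vangl2* (-1.39), and *Cd244* in monocyte-like cells, *Pigm* (-0.78) in erythroid-like cells, and *Cd244* in plasmacytoid dendritic-like cells, or 4 of 13 values in monocyte-like cells (beside 21.8% of all genes), 1 of 10 in erythroid-like (8.37%), and 1 of 13 in plasmacytoid dendritic-like cells (7.78%).

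Between related classes, 13 of 43 values of the signalling list were higher and 8 lower in the first class of the pair. By pair, 6 of 10 passed for mature against immature B-like cells (56.1% of all genes), 5 of 7 for plasma cell- against mature B-like (58.6%), 5 of 7 for T cell- against NK cell-like (27.5%), 4 of 9 for nonclassical against other monocyte-like (19.4%), and 1 of 10 for macrophage- against monocyte-like cells (18.5%). *Cd2* was higher in mature than in immature B-like cells by a log2 fold of 3.18 (SE 0.174) and lower in plasma cell-like cells by -4.26 (SE 0.414), as *Slamf6*, *Cd84*, and *Cd48* were. *Ptpn6*, *Csk*, *Uvrag*, *Vav1*, and *Pik3c3* were also higher in mature B-like cells, and *Ptpn6*, *Csk*, *Uvrag*, and *Inpp5d* lower in plasma cell-like cells. T cell-like cells had less *Cd244* (-2.44, SE 0.237), *Sh2d1a* (-0.81, SE 0.154), and *Fyn* and more *Prkcq* and *Ptpn6* than NK cell-like cells. Nonclassical monocyte-like cells had more *Cd244*, *Fyn*, *Csk*, and *Ptpn6*, and macrophage-like cells more *Fyn*, than other monocyte-like cells.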

How the data were processed

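Libraries were made with a 3′ v3.1 kit, and the authors counted reads with Cell Ranger 3.1.0 after demultiplexing with bcl2fastq 2.20. The deposited values are whole UMI counts per gene and barcode for 9 merged libraries, without normalization. Whether merging thinned libraries to equal depth, and the annotation, are not given in the sources used here. The number after a barcode was taken as the place of the library in the deposited list of merged libraries. The limits on cells, 1000 UMIs, 500 genes, and 10% of UMIs from 13 mitochondrial genes, follow the study.

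A cell entered the lineage with the most of its 8 markers, given at least 3, and was left out when markers of an unrelated lineage, multiplied by 2, exceeded that count. This limit also bears on doublets, for which no caller was run. B lineage cells were divided by immature and mature lists, and monocytes with at least 2 nonclassical markers were set apart. Summed UMIs of a class were used for each mouse that had 10 or more such cells, and were tested with edgeR 4.0.16 in R 4.3.3 (filterByExpr, TMM, robust quasi-likelihood, all 3 strains in 1 fit, weights of -0.5, 1, and -0.5 for the mean of the parents), with Benjamini-Hochberg adjustment over all genes of the class and a threshold of 0.05. Pairs of classes were fitted with the mouse as a block. A standard error is the log2 fold divided by the square root of F. Python 3.11.15 was used for gating. The procedure was tested on simulated counts, with 200 genes of a mean above 10 UMIs changed 2-fold. Between NZB and NZW, 89 of them were called in mature B-, 100 in NK cell-, and 151 in neutrophil-like cells. Between mature and immature B-like cells 160 were called. Unchanged genes called numbered 5, 2, 9, and 5. A difference that did not pass is therefore not shown to be absent. Alternatives covered the filter, scaling, DESeq2 1.42.0, gates, limits, subtraction of free RNA, a replicate block, classes by multinomial likelihood, and omission of single mice. The likelihood gave each kept cell its most likely class, with no limit on markers of unrelated lineages. It took in the 6183 kept cells that the marker count had left out, of which 1023 had under 3 markers of every lineage.

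The family members, lists, tests, and alternatives were chosen with earlier results of these data known. Named genes are the 8 members, genes of the signalling list called between parents or related classes, neighbours called between parents, and the 3 most similar genes per member with at least 50 CPM in some class. Standard errors cover counting error and the spread of mice within strains. Values after ± are SDs over all measured mice of a class and so also hold differences between strains, except where a strain is named. No batch is named in the labels used here.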

Additional observations from a re-analysis of the deposited data

Results flagged for a closer look

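Results are listed here because an effect of the same contrast differed between classes by a test of the difference. The NZB to NZW difference of *Slamf6* was larger in plasmacytoid dendritic-like than in mature B-like cells by a log2 fold of -1.89 (edgeR adjusted p = 2.02e-05). The call was lost with at least 2000 UMIs and 1000 genes (-1.19, adjusted p = 0.54) and with at most 5% mitochondrial UMIs (-2.01, adjusted p = 0.266). The NZB to NZW difference of *Slamf9* differed between the same classes by a log2 fold of 3.00 (edgeR adjusted p = 0.00503), with a called difference in plasmacytoid dendritic-like cells (0.97) and one of the opposite sign in mature B-like cells (-2.12) that did not pass (edgeR adjusted p = 0.105). It was lost without NZB3 (adjusted p = 0.0829) or NZW1 (0.0687), and rests on 3 *Slamf9* UMIs in the mature B-like cells of NZB mice. The pair of classes was chosen after the values had been seen. No separate check of outlying samples was run in the groups of 3 mice, but each mouse was left out in turn.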

How the results depend on the processing

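Of 739 values recomputed under the 22 alternatives for the 38 results that had passed, 0 reversed, 665 still passed, and 74 did not. Of 173 values that had not passed, 17 did so under at least 1 alternative, 12 of them with classes assigned by likelihood, as did 14 values that had been under the filter on low counts, 10 of them with those classes. The counts of SLAM family calls moved as follows. Between the parents, the 11 calls became 4 with at least 10 UMIs in every mouse and 4 with at least 2000 UMIs and 1000 genes. They became 4 with at most 5% mitochondrial UMIs and 20 with classes assigned by likelihood. The likelihood classes took in every kept cell, also those left out for markers of unrelated lineages, and the part of such cells in the added calls was not tested. For NZBWF1 against NZB, the 4 calls became 0 with 2000 UMIs and 1000 genes, 2 with 5% mitochondrial UMIs, and 10 with likelihood classes. For NZBWF1 against NZW, the 3 calls became 1 with no filter, 1 with 10 UMIs in every mouse, 1 with DESeq2, 0 with 2000 UMIs and 1000 genes, and 0 with 5% mitochondrial UMIs. Against the mean of the parents, the 1 call became 0 with 2000 UMIs and 1000 genes and 0 with likelihood classes. Between related classes, the 12 calls became 2 with 10 UMIs in every mouse, 6 with 2000 UMIs and 1000 genes, and 3 with 5% mitochondrial UMIs. The stricter limits leave fewer cells and the stricter filter fewer genes. These counts are not set beside the share of all genes that passed under the same alternative. Whether the family moved apart from other genes can therefore not be told from them. Log2 folds moved as well, some to smaller and some to larger sizes. With at most 5% mitochondrial UMIs, *Slamf6* in plasmacytoid dendritic-like cells went from 1.82 to 0.58 for NZBWF1 against NZB. Against NZW it went from -0.77 to -1.68. The causes of these changes were not tested. Leaving out each mouse in turn gave 9 to 12 calls between the parents, 2 to 4 for NZBWF1 against NZB, 1 to 3 against NZW, 0 to 1 against the mean of the parents, and 11 to 13 between related classes. The replicate numbers of the titles were not taken to pair the mice, because deviations of same-numbered mice correlated above 0.1 in 11 of 36 cases (range -0.13 to 0.711) and not in all. In neutrophil-like cells they correlated by 0.56 to 0.711 for numbers 1 and 2 but by -0.099 to 0.082 for number 3. With a replicate block the counts were 11, 4, 3, and 1. Levels were unchanged within 1 SD for 9 of 16 recomputed values, and the 7 that moved were shares of cells before thinning. Classes with fewer than 10 cells in most mice (conventional dendritic- and megakaryocyte-like) could not be tested, and basophil or mast-like cells had no member above the filter. Fits between strains required mice of all 3 strains. Plasma cell-like cells (no NZW mouse with 10 cells) and macrophage-like cells (no NZB mouse with 10) were therefore left out. NZBWF1 against NZB in the former and against NZW in the latter was not tested.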
